A study of Sorghum bicolor with 8 samples.

Results

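Callus III was compared with Callus II in sorghum (Sorghum bicolor, line Hiro-1, wild type). The comparison rests on 2 libraries of each type, 4 of the 8 in the series, and each difference is signed Callus III minus Callus II. Both types were excised from young embryos that had been kept for 3 weeks in the dark on medium that induces callus. Each was then subcultured for 20 days on new medium of that kind. The remaining 4 libraries came from Callus I of this culture and from leaves regenerated out of Callus II after a move to differentiation medium under a cycle of light and dark. They entered the estimate of the spread and are otherwise given as levels only. The series is about callus that differs in its capacity to regenerate. The labels neither rank nor describe Callus II and Callus III, and they leave unsaid whether the replicates of a type were separate cultures.

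Callus is a mass of proliferating plant cells that forms in culture when auxin and cytokinin, the main growth hormones of such media, hold cells out of their normal fate. In cereals, callus from a single embryo is often mixed. Some of it is compact and can form somatic embryos or shoots, and some is soft or watery and regenerates poorly. Whole pieces of callus were sequenced, so a change in the share of a cell type and a change in the RNA of each cell cannot be told apart.

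Expression is given in FPKM, a count of fragments divided by transcript length and by library size. Of 34129 genes listed, 19740 reached 1 FPKM in 2 or more of the 4 libraries and were tested. The files pair each identifier with a position and not with a name. In the gene table used here 0 identifiers were found, so no function is assigned to any gene, and markers of cell types could not be examined. Positions are those of the files, on a genome build that the sources used here do not name.

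The callus types were far apart next to the spread of their replicates. Over the tested genes, replicates correlated at 0.979 in Callus II and at 0.979 in Callus III (Pearson, log2(FPKM + 1)), whereas libraries of different type correlated at 0.689 ± 0.030 (mean and SD, 4 library pairs). Callus III replicate 1 lay farther from Callus II, at 0.668 and 0.660, than Callus III replicate 2, at 0.720 and 0.711. Such correlations run across genes, which are not replicates, and depend on the filter.

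**Figure D1:**
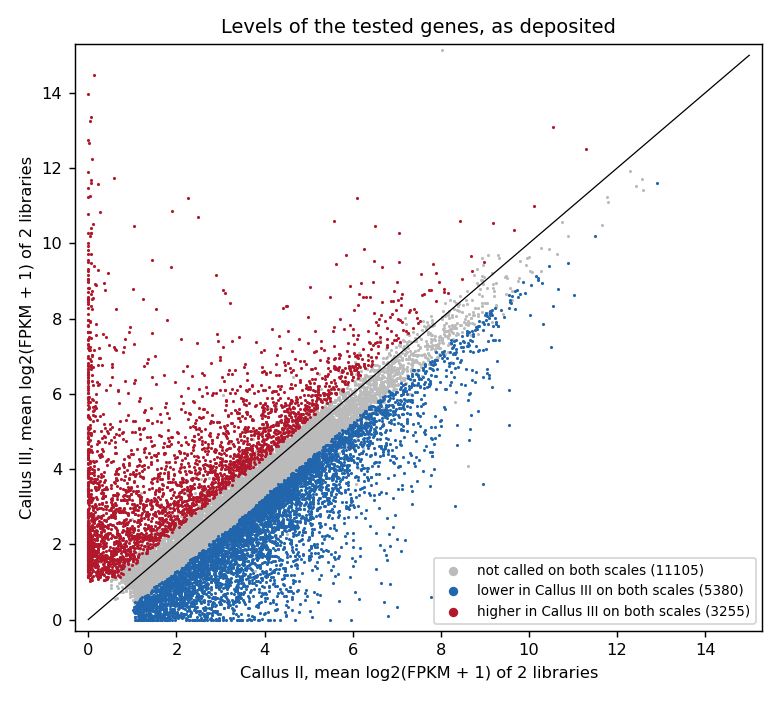
Mean level of each of the 19740 tested genes in Callus II (x axis) and Callus III (y axis), both as log2(FPKM + 1) of the deposited values, with the line of equal levels. The 3255 genes called higher on both scales include a column at the left edge, near 0 in Callus II, that runs up to the highest levels of the plot, and the 5380 genes called lower form a broad band below the line.

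As deposited, more genes were lower than higher in Callus III, and the largest differences were increases. With the deposited FPKM, limma called 12986 of the 19740 genes (65.8%) at a Benjamini-Hochberg adjusted p under 0.05. Of these, 3255 (16.5% of the genes tested) were higher in Callus III and 9731 (49.3%) were lower. The median difference of all tested genes was -0.44 on the log2(FPKM + 1) scale, so a typical gene was lower in the deposited values of Callus III.

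Median-ratio scaling, which sets the typical gene of each library to one level, left a median difference of -0.04. On the scaled values limma called 10390 genes (52.6%), 5010 higher (25.4%) and 5380 lower (27.3%). Libraries were also brought to equal sums of FPKM, with 100 genes of highest value left out of the sum. This gave 10821 calls (54.8%), 4261 higher (21.6%) and 6560 lower (33.2%), at a median difference of -0.17. Higher genes were 25.1% of the calls as deposited, 48.2% after median-ratio scaling and 39.4% with equal sums, so the balance of direction moved with the scaling.

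The deposited and the median-ratio scale called 0 genes in opposite directions. The scaling raises both Callus III replicates relative to those of Callus II, replicate 1 more than replicate 2. It divides them by 0.818 and 0.941, and the Callus II replicates by 1.21 and 1.20. All 3255 higher calls as deposited stayed, and all 5380 lower calls after scaling were there before, which such a shift favours by construction. The calls shared by both scales were 3255 higher and 5380 lower genes, 16.5% and 27.3% of those tested. A further 4351 genes were lower as deposited only, and 1755 were higher after scaling only. At 10650 genes the 95% interval of the scaled difference lay within 1 log2 unit on either side of 0.

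Among large changes, higher genes outnumbered lower ones. At a difference of 2-fold on both scales, 2136 genes were higher in Callus III (10.8% of those tested) and 2448 lower (12.4%), a balance that turned to 2054 and 2016 without Callus III replicate 1. At 8-fold there were 551 higher (2.79%) and 192 lower (0.973%). At 32-fold there were 219 higher (1.11%) and 9 lower (0.0456%), and at 256-fold 67 and 0. Scaled differences ran from -6.87 to 14.55. The 1 FPKM added to each value limits how far a gene of modest level can fall on this scale. With 0.1 FPKM added instead, 516 genes were higher and 113 lower at 32-fold. With each of the 4 libraries left out in turn, 209 to 221 genes were higher and 8 to 21 lower at 32-fold, and the 21 came without Callus III replicate 2.

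**Figure D2:**
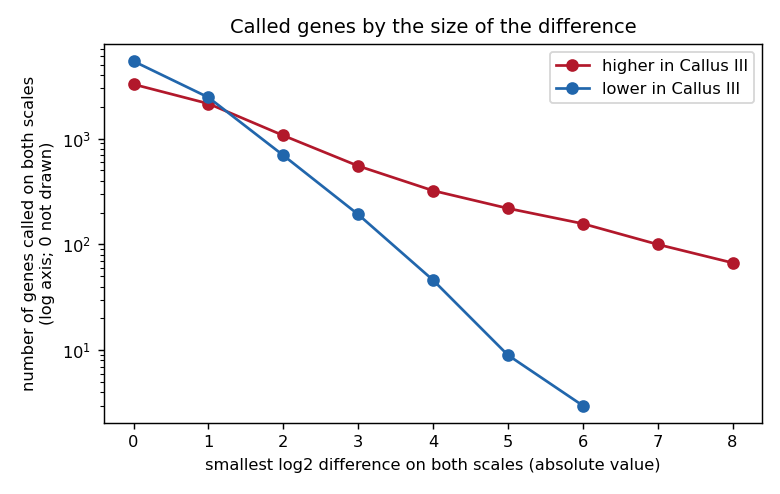
Number of genes called on both scales (y axis, log scale) whose absolute log2 difference is at least the value on the x axis on both scales. Lower genes outnumber higher genes at the left (5380 and 3255) and the lines cross beyond a difference of 1, so that 219 higher and 9 lower genes remain at a difference of 5.

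The increases at the top of the order were at Sobic.008G030900.v3.2 (chromosome 8, 2751929 to 2760254) and Sobic.007G075301.v3.2 (chromosome 7, 8648504 to 8649372), and which of them came first depended on the FPKM added. At Sobic.008G030900.v3.2 the FPKM were 0.0910 and 0.101 in the Callus II replicates, and 24962 and 20705 in those of Callus III. The scaled difference was 14.55 ± 0.72 (SE, 2 libraries a group; adjusted p = 8.43e-06 by limma and Benjamini-Hochberg). Its locus overlaps another, so reads may have been shared. Sobic.007G075301.v3.2 was listed at 0 in Callus II, Callus I and Leaf alike, and its Callus III replicates held 22792 and 11428 FPKM (limma adjusted p = 3.38e-07 on scaled values, no fold given). Separation of the groups was a condition for naming a gene and is no result at either. The Callus III replicates were farther apart at Sobic.007G075301.v3.2.

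The largest decreases were smaller. Sobic.005G080600.v3.2 (chromosome 5, 10617467 to 10619454) fell from 267.5 and 178.0 FPKM to 0.130 and 1.04, a scaled difference of -6.87 ± 0.30 (SE; limma adjusted p = 4.81e-06). Sobic.004G311000.v3.2 (chromosome 4, 64749515 to 64752467) fell from 106.5 and 114.4 FPKM to 0.151 and 0, a scaled difference of -6.41 ± 0.15 (SE; limma adjusted p = 3.02e-07). Both were under 1 FPKM in every Callus I and Leaf library. With each library left out in turn, the scaled difference ran from -7.31 to -6.46 at Sobic.005G080600.v3.2, from -6.58 to -6.30 at Sobic.004G311000.v3.2, and from 14.36 to 14.80 at Sobic.008G030900.v3.2.

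Expression that was near absent in one type and clear in the other lay mostly on the side of Callus III. Genes under 1 FPKM in both Callus II libraries with 10 FPKM or more in both of Callus III numbered 334, and genes of the reverse pattern 72. The 334 had medians of 0.0270 and 0.0236 FPKM in the Callus II replicates, 51.5 and 40.7 in those of Callus III, and a highest level of 24962. The 72 had medians of 16.9 and 18.9 FPKM in the Callus II replicates, 0.151 and 0.566 in those of Callus III, and a highest level of 142.9. The sets were chosen by these levels, so the values describe them and test nothing. After median-ratio scaling, an alternative added once the data had been seen, they numbered 369 and 52. Leaving out a library drops a condition, so the numbers can then only stay or rise. The 334 became 360 to 375 with each library left out in turn. The 72 became 171 without Callus III replicate 2, and 80 to 108 without any one of the other 3 libraries.

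With a floor of 100 FPKM in the higher type, 106 genes were near absent in Callus II and 2 in Callus III. With a floor of 1000 FPKM there were 21 and 0. These 21 genes ran from 1473 to 24962 FPKM in Callus III replicate 1 (median 3726) and from 1013 to 20705 in replicate 2 (median 2655). They held 18.3% and 12.8% of the summed FPKM of the Callus III libraries, against 0.000228% and 0.000185% of the sums of Callus II. Since FPKM is divided by length, these are not shares of reads. A sum taken up by few genes leaves less for the rest in a relative measure, and the 100 highest genes took 44.0% and 39.3% in Callus III where they took 28.7% and 20.8% in Callus II. The part of this in the lower deposited level of the typical gene was not tested beyond the scaled and equal-sum values above.

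Levels in Callus I and Leaf had no part in choosing these sets. Of the 334 genes near absent in Callus II, 131 were also under 1 FPKM in all 4 libraries of Callus I and Leaf. Both Leaf libraries reached 10 FPKM at 92 of them (27.5%), both Callus I libraries at 32 (9.58%), and all 4 at 20. Of the 72 genes near absent in Callus III, 31 were under 1 FPKM in Callus I and Leaf, both Leaf libraries reached 10 FPKM at 2 (2.78%) and both Callus I libraries at 9 (12.5%). Over all tested genes those shares were 45.7% for Leaf and 43.6% for Callus I, with 6.50% under 1 FPKM in all 4. No test was made of these differences. Among the 21 most abundant genes, 15 were under 1 FPKM throughout Callus I and Leaf.

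**Figure D3:**
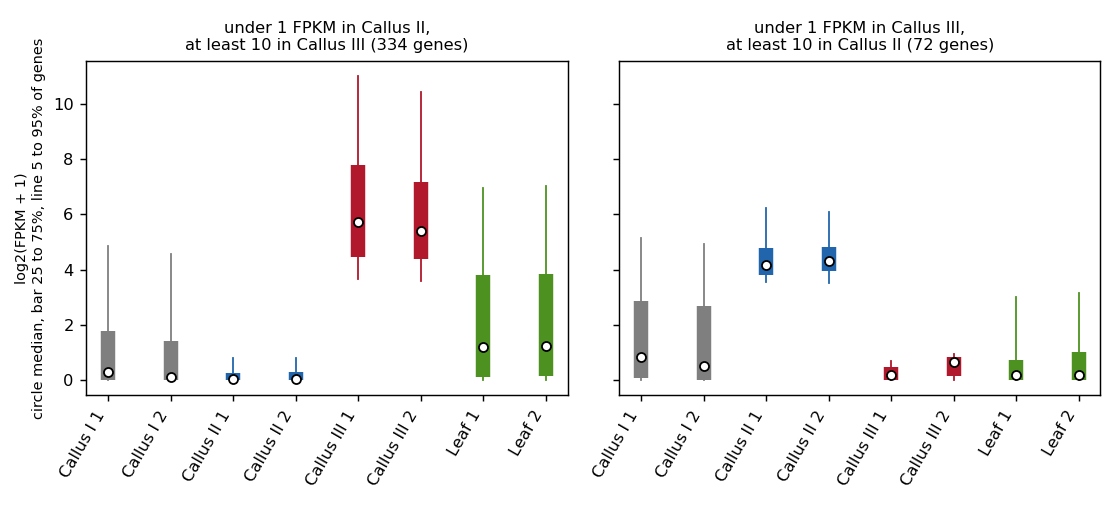
Levels, as log2(FPKM + 1), of the 334 genes under 1 FPKM in Callus II and at least 10 in Callus III (left) and of the 72 genes with the reverse pattern (right), in each of the 8 libraries. Circles are medians, thick bars cover 25 to 75% and thin lines 5 to 95% of the genes, and Leaf libraries reach higher in the left panel than in the right.

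Some genes went further and were listed at 0 in both replicates of one type. At 118 genes Callus II was listed at 0 and Callus III reached 10 FPKM, with at most 19 of them on any chromosome. Of these, 42 had 1 FPKM or more in both Leaf libraries and 13 in both Callus I libraries. At 66 of them all 4 libraries of Callus I and Leaf were under 1 FPKM, and 10 of these were listed at 0 in all 4. The reverse pattern held at 12 genes, of which 1 had 1 FPKM or more in both Leaf libraries and 4 in both Callus I libraries. At 6 of the 12 all 4 libraries were under 1 FPKM. Over all tested genes that share was 6.50%. A listed 0 may be an estimate that failed. An example is the locus with the highest mean over the compared libraries, 264 bp on chromosome 2 (59828774 to 59829037). Callus II replicate 1 held 67669 FPKM there and replicate 2 held 0, while Callus III held 29127 and 44430, and the locus was not called (limma adjusted p = 0.373 as deposited).

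The share of higher genes was largest in the most abundant class and did not simply rise with level. Among the 246 genes with a scaled mean of 300 FPKM or more, 84 (34.1%) were called higher on both scales and 67 (27.2%) lower, and by 2-fold 73 and 17. Among the 5871 genes between 10 and 30 FPKM, 790 (13.5%) were higher and 1508 (25.7%) lower, and by 2-fold 451 and 605. Among the 4154 genes under 3 FPKM, 805 (19.4%) were higher and 1212 (29.2%) lower, and by 2-fold 573 and 570. The mean that sorts genes here includes the Callus III libraries, so a large increase itself moves a gene into the top class.

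The 10 loci with the highest means show both directions, and those named here were singled out after their values were seen. On chromosome 5, the locus at 64214230 to 64216294 reached 11886 and 9325 FPKM in Callus III, where the Callus II replicates had 0 and 0.0924. On chromosome 6, that at 52481186 to 52482435 reached 10389 and 9039 FPKM against 0 and 0.0420. On chromosome 3, that at 6109250 to 6110125 was abundant in both types, with 1599 and 1378 FPKM in the Callus II replicates and 8840 and 8554 in those of Callus III (limma adjusted p = 0.00534 scaled). Lower in Callus III was the locus at 41118007 to 41120500 on chromosome 4, with 6857 and 8491 FPKM against 3462 and 2791 (limma adjusted p = 0.00384 as deposited and 0.0469 scaled).

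The replicates of Callus III were not equally far from Callus II. Among the genes lower by 2-fold on both scales, replicate 1 stood above replicate 2 in 16.0% on scaled values and in 9.19% as deposited. Among those higher by 2-fold, it stood above in 73.1% on scaled values and in 59.4% as deposited. All 21 genes past 1000 FPKM were higher in replicate 1. In Callus II the split of the same genes was nearer to even, with replicate 1 above replicate 2 in 43.5% of the lower and 47.8% of the higher genes on scaled values. Replicate 1 of Callus III was thus more often the extreme one of its type in both directions.

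This gap grew with the size of the difference between the types. In Callus III the median of replicate 2 minus replicate 1, on scaled log2 values, was 0.61 for the 193 genes that were lower by 3 or more. It was -0.01 for the 14317 genes within 1 of no difference and -0.77 for the 73 genes higher by 8 or more. In Callus II these medians were 0.09, -0.01 and 0. The last is largely set by the floor: the 67 genes higher by 256-fold on both scales had medians of 0 FPKM in both Callus II replicates. Replicates differed by 2-fold at 2.18% of genes in Callus II and 2.56% in Callus III. Without Callus III replicate 1, 2818 genes were higher and 3744 lower on both scales, and without replicate 2 these counts were 2862 and 4779. The part of the replicate gap in single results was not tested beyond such values.

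**Figure D4:**
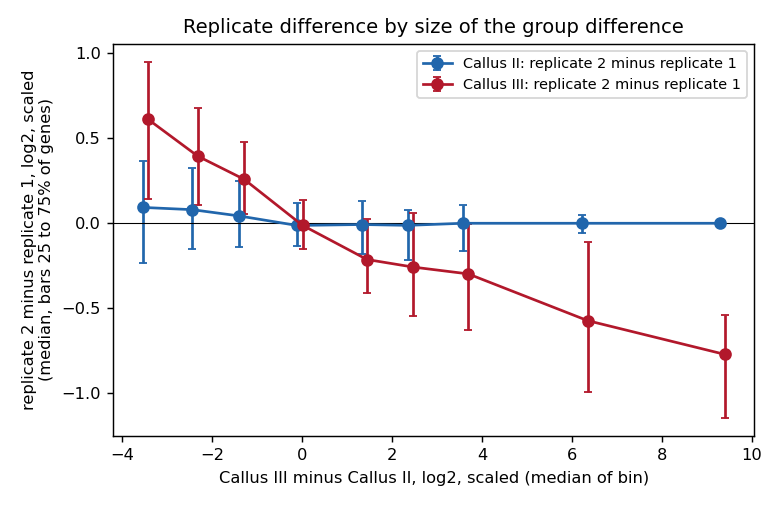
Replicate 2 minus replicate 1 (y axis, scaled log2, median with 25 to 75% of genes as bars) in bins of the difference Callus III minus Callus II (x axis, scaled log2, median of the bin). The Callus III line falls from 0.61 at the left to -0.77 at the right, while the Callus II line stays between -0.01 and 0.09. Genes at the far right lie mostly near 0 FPKM in Callus II, where little difference between replicates is possible.

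Some differences were shared by tested genes that follow one another along a chromosome, in some cases with untested loci between them. A run was taken as 5 or more tested genes in a row, all called in one direction on both scales and all by 2-fold on both. There were 11 runs with 59 genes, 7 higher with 38 genes and 4 lower with 21. Single genes met the condition at 10.8% (higher) and 12.4% (lower) of those tested, and the number of runs that chance would give was not computed. Without Callus II replicate 2 there were 3 higher runs, and without Callus III replicate 1 there were 4. With 0.1 FPKM added there were 10 lower runs, and without overlapping loci 2. With only genes that averaged 5 FPKM, 2 higher runs and 1 lower run were left. The condition chose the genes, so their values are a description.

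A higher run lay on chromosome 6 from 49628037 to 49656094 (28.1 kb, 6 tested genes of 7 listed), at a scaled median difference of 4.29, and of 3.12 without its overlapping locus. Its locus at 49637595 to 49638947 held 4194 and 2828 FPKM in Callus III. Its levels were 0.600 and 0.397 FPKM in the Callus II replicates and 27.2 and 27.5 in the leaves. The neighbour at 49642483 to 49644052 held 1887 and 1258 FPKM in Callus III and was clearly present in Callus II, at 54.2 and 40.2. The first locus of the run, at 49628037 to 49630611, held 393.6 and 293.4 FPKM against 9.89 and 6.81. The last 3 loci were scarce, at 1.10 to 9.71 FPKM in Callus III and 0 to 0.303 in Callus II. The run thus joined abundant and scarce transcripts, and genes present in Callus II with genes near absent there.

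On chromosome 8, 5 tested genes of 9 listed, from 2682955 to 2760254 (77.3 kb), included Sobic.008G030900.v3.2. Their median FPKM rose from 0.0680 and 0.0622 in the Callus II replicates to 14.8 and 19.4 in those of Callus III. Callus I had medians of 25.3 and 7.05 and Leaf of 241.3 and 197.5, so Callus II was the lowest of the 4 groups. The locus at 2745376 to 2746436 was listed at 0 in Callus II. It held 14.8 and 19.4 FPKM in the Callus III replicates and was most abundant in Leaf, at 1743 and 1751. At Sobic.008G030900.v3.2 the order was the other way, with 24962 and 20705 FPKM in Callus III above 3773 and 4559 in Leaf. Its locus overlaps the tested one before it.

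A run on chromosome 10 from 55412773 to 55434730 (22.0 kb, 5 tested genes of 7 listed) had a median FPKM of 0.148 and 0.0463 in the Callus II replicates, against 27.1 and 15.8 in those of Callus III. Its locus at 55430708 to 55431651 held 65.4 and 54.4 FPKM in Callus III, was listed at 0 in Callus II, and stayed at or under 0.215 elsewhere. On chromosome 3, 2 of the 5 loci from 8694900 to 8711187 (16.3 kb) overlap another. The last of the 5 (8708589 to 8711187) held 512.2 and 483.2 FPKM in Callus III, with 0 listed in Callus II and Callus I and at most 0.0432 in Leaf. The first of them (8694900 to 8696906) was expressed in every group, with 9.27 and 13.1 FPKM in the Callus II replicates, 48.1 and 38.1 in those of Callus III, and 32.7 and 40.4 in Leaf.

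On chromosome 7, 5 tested genes of 13 listed, from 7240871 to 7460348 (219.5 kb), had a median FPKM of 0.00942 and 0.00408 in the Callus II replicates, against 2.60 and 2.95 in those of Callus III. Callus I was higher, at 10.8 and 6.38, and Leaf lower than Callus III, at 0.740 and 0.814. The scaled differences of the 5 genes ran from 1.27 to 2.30, and with 0.1 FPKM added their median moved from 2.05 to 4.95. The higher run with the most tested genes, 7 of 7 listed, lay on chromosome 1 from 68610741 to 68690338. Its median FPKM was 12.7 and 15.7 in the Callus II replicates and 65.1 and 85.2 in those of Callus III. Callus I had medians of 74.3 and 34.2, and Leaf of 3.94 and 4.94. The remaining higher run, on chromosome 1 from 69919640 to 69935701, had medians of 0 in both Callus II replicates and of 8.36 and 15.1 in those of Callus III.

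The lower run on chromosome 6, from 48958495 to 49015240 (56.7 kb), held 5 tested genes of 5 listed, with 0 overlapping another locus. Their median FPKM fell from 17.3 and 18.9 in the Callus II replicates to 2.21 and 3.85 in those of Callus III. Callus I had medians of 4.49 and 4.83 and Leaf of 0.947 and 0.598. The locus at 48971675 to 48974102 was at 9.19 and 6.99 FPKM in Callus II and at most 0.578 in any other library. Its first neighbour, at 48958495 to 48960747, was instead highest in Callus I, at 59.4 and 62.3 FPKM, while the Callus II replicates held 21.2 and 30.9 and those of Callus III 3.88 and 5.60. At 49008765 to 49015240 Callus III, with 2.21 and 3.85 FPKM, lay above Callus I, with 0.418 and 0.419. The genes of the run were thus all lower than in Callus II, which is what chose them, and differed in their order over the other groups.

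On chromosome 1, 6 genes of 6 listed from 77451946 to 77481524 (29.6 kb) had a median FPKM of 2.10 and 3.32 in the Callus II replicates, against 0.0308 and 0.109 in those of Callus III. The most abundant, at 77454600 to 77456486, held 20.0 and 26.6 FPKM against 0.916 and 1.70. With 0.1 FPKM added, the scaled median of this run moved from -1.58 to -3.78. Another lower run on chromosome 1, of 5 tested genes, lay from 71991149 to 72029833 (38.7 kb), and 3 of them overlap another locus. It included the locus at 71997758 to 72001265, which held 51.0 and 60.3 FPKM against 2.60 and 5.02. The scaled median of that run moved from -1.56 to -2.67 with 0.1 FPKM added. A run of 5 tested genes on chromosome 10, from 59294356 to 59343744 (49.4 kb), had 2 that overlap another locus. Its median FPKM was 8.22 and 11.1 against 0.530 and 0.815. Reads of overlapping loci may have been shared. In all 4 lower runs the median was higher in Callus III replicate 2 than in replicate 1.

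**Figure D5:**
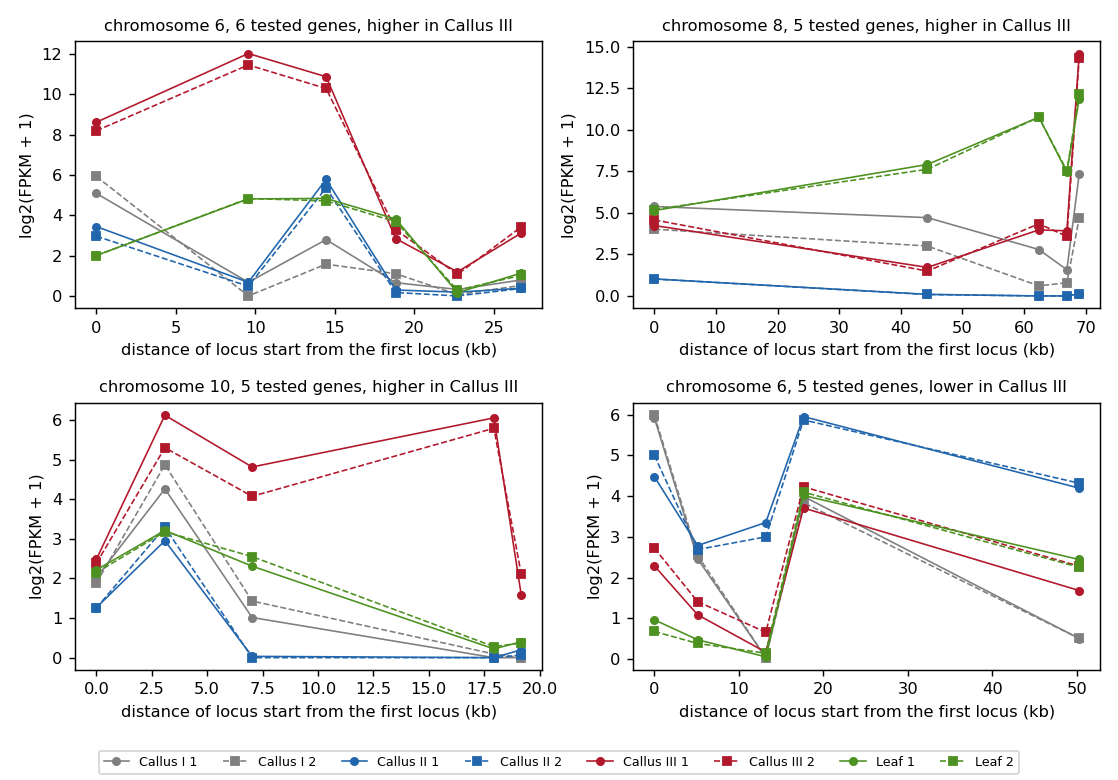
Levels, as log2(FPKM + 1), of the tested genes in 4 runs of neighbours against the distance of each locus from the first (kb), with 1 line per library. Callus III lies above Callus II at every gene in the first 3 panels and below it at every gene in the panel of 5 lower genes on chromosome 6, and Leaf exceeds Callus III at several genes of the chromosome 8 panel.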

How the data were processed

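The values are FPKM per gene as deposited by the authors, 1 file per library. Trimmomatic, TopHat2 2.0 and Cuffdiff are named per the submitters' processing notes, with no roles; the build, the settings and any use of strand were not given in the sources used here. Files were joined by identifier, and 1 was added to locus starts. FPKM sums were 643004 to 737291 in the 4 libraries compared. Read totals were not used, and absolute depth is unknown. Ratios of values under 0.2 FPKM peaked at a depth of 0.899 to 0.928 relative to Callus II replicate 1, but at 6.11% to 10.5% of pairs only (within 0.1%).

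The 19740 genes were fitted as log2(FPKM + 1) in limma 3.58.1 (R 4.3.3) over all 8 libraries, with 1 mean per group, a variance trend, 2-sided tests and Benjamini-Hochberg adjustment over all of them. The fit was repeated after dividing FPKM by median-ratio factors, 1.21 and 1.20 for the Callus II replicates, 0.818 and 0.941 for those of Callus III. Folds on this scale understate the change of low genes. With 2 libraries a group, p-values reflect a spread that may be technical, and a permutation test of 2 against 2 gives no 2-sided p below 0.333.

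Members and gene lists were chosen with earlier results of these data known. Named genes had to be called on both scales, without overlap of the groups and with 10 FPKM or more on average in the higher type. They were ordered by the deposited difference, at most 2 in each direction where no description exists. The 40 gene lists needed descriptions and had 0 members.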

Additional observations from a re-analysis of the deposited data

How the results depend on the processing

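Under 13 other ways of processing, wherever a value could be had, 0 of the differences reported for named genes and runs changed direction. The calls of the 4 named genes were kept. These genes and runs had been chosen by calls on both scales, and several of the alternatives leave a difference unchanged. Kept directions and calls were thus favoured by construction and are no independent support. The balance of the scaled calls did turn, from 5010 higher and 5380 lower as reported. It was 5072 and 4780 in a fit of the 4 compared libraries only, and 5552 and 5504 with no filter on low values. Counts of calls stayed within 1.5 times of those reported except as follows. Requiring an average of 5 FPKM, which tests fewer genes, gave 2030 genes higher as deposited and 2030 on both scales, and by 2-fold 1241 higher and 1629 lower. With 0.1 FPKM added, 1155 genes were higher and 633 lower by 8-fold, and 516 and 113 by 32-fold. Without single libraries, genes lower by 32-fold numbered 8 to 21, and genes near absent in Callus III 80 to 171, both highest without Callus III replicate 2. The correlation between types was 0.591 with 0.1 FPKM added, 0.826 with no filter, 0.502 at an average of 5 FPKM and 0.778 with 1 FPKM in 2 of 8 libraries; the cause was not tested. Across genes, same-numbered replicates did not deviate together (correlation of deviations between Callus II and Callus III, -0.016). Whether they shared a culture or day is unknown, and this value from 2 libraries a group cannot decide it. With the replicate block, 12567 genes were called as deposited and 9987 after scaling. Median-ratio scaling of the sets by level and of the correlation was added after seeing the data. Alternatives for gene lists were not run, since the lists had no members. Depth, which is unknown, limits what can be said of genes of low level.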

Other observations

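The differences were spread over the genome. On the 10 chromosomes, 15.5% to 17.5% of the tested genes were called higher in Callus III on both scales and 25.5% to 29.2% lower, and the median scaled difference ran from -0.06 to -0.02.

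Genes with large differences had shorter loci. The median locus was 3707 bp over all tested genes, 2690.5 bp among those higher by 2-fold in Callus III and 1593 bp among those higher by 32-fold. It was 2809.5 bp among those lower by 2-fold and 2180 bp among the 9 genes lower by 32-fold. A locus includes introns, so these are not transcript lengths.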
